A study of Rattus norvegicus with 6 samples.

Results

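Nicotinic acetylcholine receptors are the direct targets of nicotine, and the expression of 10 of their subunit genes was examined in the pituitary gland of adult male rats whose dams received nicotine from a pump placed during pregnancy. The genes, *Chrna2*, *Chrna3*, *Chrna4*, *Chrna5*, *Chrna7*, *Chrna9*, *Chrna10*, *Chrnb1*, *Chrnb2* and *Chrnb4*, were matched by symbol, and all 10 were among the 33294 genes of the count files. The nicotine group was 3 Sprague-Dawley males, aged 11 weeks, born to dams that carried a subcutaneous 28-day osmotic pump filled with nicotine tartrate, labelled 6 mg/kg/day, placed during pregnancy. The control group was 3 males of the same strain and age, born to dams whose pump held saline. The rated life of the pump runs past the birth of the litter, and so the time over which the offspring were exposed is not fixed by pregnancy alone. No genetic alteration is stated for either group. Whether littermates were among the rats was not stated, so the p-values measure the spread between these 6 libraries.

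Total RNA of the gland was sequenced with 1 library per rat, and the totals ranged from 28318383 to 85977002 counts. Nicotine replicates 1, 2 and 3 held 46239801, 85977002 and 62932317 counts. Control replicates 1, 2 and 3 held 28318383, 54309256 and 37095718 counts, so the same raw count is not the same level in each library. The read numbers that the study lists per library match the totals of the count files only when the nicotine and control groups are exchanged. The groups used here are those of the sample labels, and an exchange would turn the sign of each difference given below without changing its size. The hormone genes of the anterior lobe were present in each library, with *Gh1*, which encodes growth hormone, between 52429 and 115788 CPM, so the tissue label was met. CPM is the count scaled to the library size with TMM factors, its values are not divided by gene length, and they are therefore compared between libraries for 1 gene and not between genes. In bulk tissue, fewer cells of a type and less RNA per cell cannot be told apart. A gene was called when edgeR's quasi-likelihood test gave an adjusted p under 0.1 and the fold change was over 1.5.

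A nicotinic receptor is a ring of subunits around a cation channel that opens when acetylcholine or nicotine binds between an alpha subunit and its neighbour. The products of *Chrna4* and *Chrnb2* form the high-affinity receptor of the brain, that of *Chrna7* can form a receptor alone, those of *Chrna3* and *Chrnb4* form the receptor of autonomic ganglia and the adrenal medulla, and those of *Chrna9* and *Chrna10* form the receptor of cochlear hair cells. The product of *Chrnb1* belongs to the receptor of skeletal muscle. The *Chrna5* product is an accessory subunit that joins other pairs.

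All 10 genes had a count in at least 1 library, as did 24546 of the 33294 genes in the files, but at very different depth. Each of 9 genes had at least 1 count in every library, the exception being *Chrna3*. The filter on low counts kept 8 genes for the test and removed *Chrna3* and *Chrna5*. Of all 33294 genes, 18845 had a count in every library and 17292 were kept by the filter. The 3 genes with the most counts were *Chrnb2*, with 217 to 1574 counts per library, *Chrna4*, with 169 to 875 counts, and *Chrnb1*, with 74 to 283 counts. Between 11 and 140 counts per library were found for *Chrna2*, *Chrna7*, *Chrna9*, *Chrna10* and *Chrnb4*, and their differences between groups are correspondingly less precise. For comparison, 20 of 168 genes for receptors of the vomeronasal organ had a count in any library and 1 passed the filter. This comparison was chosen after the values were seen.

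**Figure D1:**
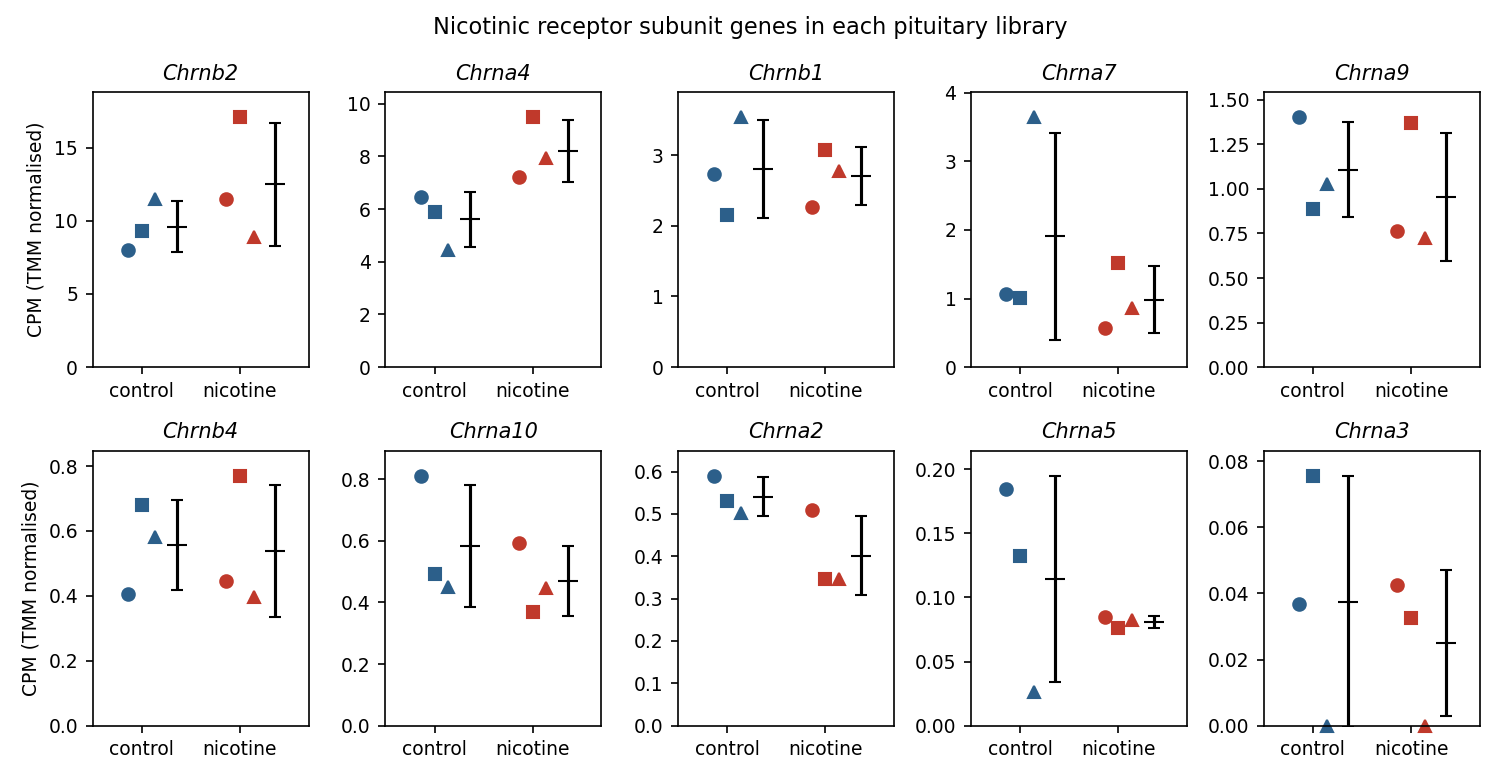
Level of each of the 10 subunit genes in each library, in CPM after TMM normalisation, with a separate axis from 0 for each gene. Blue marks are control and red marks nicotine libraries (circle, square and triangle for replicates 1, 2 and 3), and bars are the mean ± SD of 3 libraries. The groups are separate only for *Chrna4*, and control replicate 3 stands at 3.65 CPM for *Chrna7*.

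*Chrna4* encodes the alpha subunit of the high-affinity brain receptor. Its level was 7.21, 9.50 and 7.93 CPM in nicotine replicates 1, 2 and 3, and 6.46, 5.90 and 4.46 CPM in control replicates 1, 2 and 3. Each nicotine library was above each control library, and *Chrna4* was the only one of the 8 genes tested for which the groups did not overlap. Over all genes tested 11.3% did not overlap. Nicotine libraries averaged 8.21 ± 1.17 CPM against 5.61 ± 1.03 CPM for control libraries (SD, n = 3 rats per group). This is a log2 fold change of 0.56 (standard error, SE, 0.23, 95% interval 0.06 to 1.05). The unadjusted p was 0.0314 and the adjusted p was 0.806 in edgeR, so *Chrna4* was not called, and an unadjusted p under 0.05 was found for 6.14% of all genes tested. DESeq2 gave a log2 fold change of 0.56 with an adjusted p of 0.646. In the annotation of a later assembly than the one used for counting, *Chrna4* overlaps the collagen gene *Col20a1*, which lay between 0.702 and 1.48 CPM, with overlapping groups.

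The level of *Chrna4* followed the genes of the posterior lobe of the pituitary, which holds axon endings of hypothalamic neurons and glial pituicytes. *Col25a1*, a collagen gene on the list of posterior lobe markers, was at 6.30, 14.2 and 8.94 CPM in the nicotine libraries and at 5.28, 3.40 and 0.925 CPM in the control libraries. The order of the 6 libraries was the same for both genes (Spearman's rho 1, Pearson's r 0.986 on log2 CPM, n = 6), and r was 0.982 over the 4 libraries left without nicotine replicate 2 and control replicate 3. *Col25a1* ranked 3 in likeness to *Chrna4* among 14505 genes, after *Sema5a* (r = 0.995), which encodes a semaphorin, and *Eif3d* (r = 0.989), which encodes a translation initiation factor. The pituicyte transcription factor genes *Nkx2-1* and *Rax* had r of 0.952 and 0.927 with *Chrna4*, and the hormone genes *Avp* and *Oxt* had 0.956 and 0.955. In likeness to *Chrna4* they ranked 45, 110, 39 and 40. Over the 4 libraries left without the 2 furthest from the median of each marker, r was 0.978 for *Nkx2-1* and 0.813 for *Rax*. It was 0.871 for *Avp* and 0.866 for *Oxt*. These genes were measured in the same libraries and share their depth, and with 6 points 45 genes had an r over 0.95 with *Chrna4*, so the values are a description. The summed level of the 5 posterior lobe genes was 82.3, 233 and 83.7 CPM in the nicotine libraries and 76.5, 27.3 and 6.79 CPM in the control libraries. None of the 5 genes was at 0 in any library, and all 5 were higher after nicotine with an unadjusted p under 0.05 in edgeR. For 4 of 5 the nicotine libraries were all above the control libraries, against 6.12% of all genes tested. None of the 5 was called, with adjusted p from 0.760 to 0.806 in edgeR. In DESeq2 the unadjusted p was 0.0248 for *Col25a1* and 0.0405 for *Avp*. It was over 0.05 there for *Nkx2-1*, *Oxt* and *Rax*, at 0.0795, 0.0962 and 0.187. With voom the unadjusted p lay between 0.00186 and 0.0280. The part of the posterior lobe in the difference of *Chrna4* was not tested. Without control replicate 3, which held the least of these markers, the log2 fold change of *Chrna4* was 0.42 (unadjusted p = 0.123 in edgeR).

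**Figure D2:**
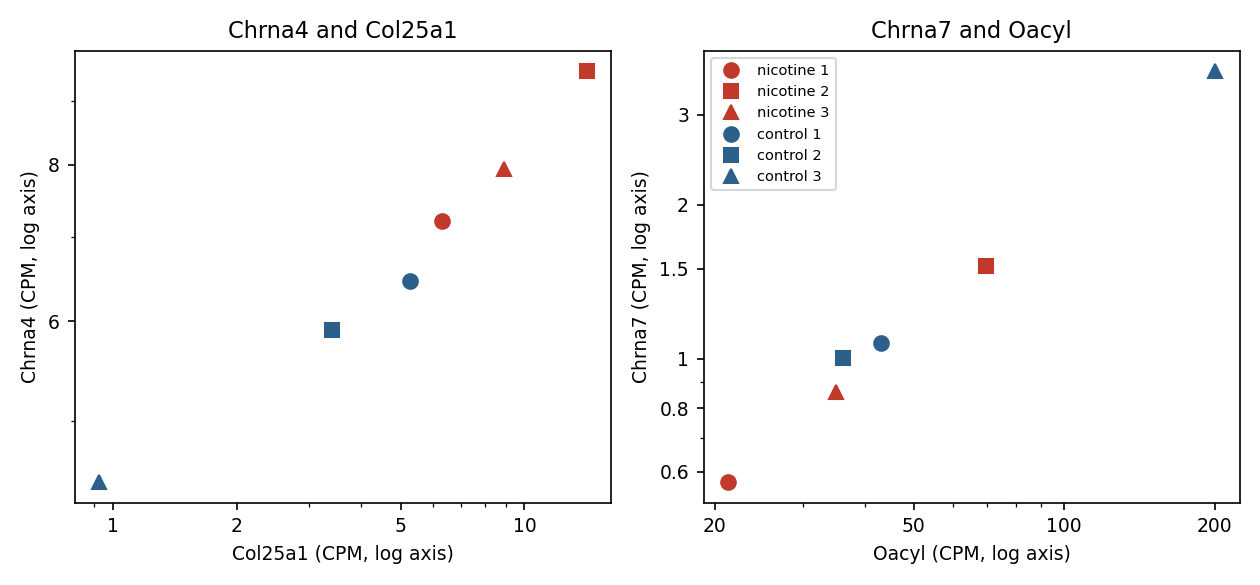
Left, *Chrna4* against the posterior lobe gene *Col25a1*, and right, *Chrna7* against the melanotroph gene *Oacyl*, in CPM on log axes, with 1 mark per library (red nicotine, blue control). Pearson's r on log2 CPM was 0.986 on the left and 0.997 on the right over 6 libraries, and control replicate 3 lies lowest on the left and highest on the right.

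*Chrnb2* encodes the beta subunit that pairs with *Chrna4* in the brain. It was at 11.5, 17.1 and 8.87 CPM in nicotine replicates 1, 2 and 3 and at 8.01, 9.27 and 11.5 CPM in control replicates 1, 2 and 3. Nicotine replicate 2 was the highest of the 6 and the groups overlapped. Nicotine libraries averaged 12.5 ± 4.19 CPM against 9.58 ± 1.75 CPM for control libraries (SD, n = 3 rats per group). This is a log2 fold change of 0.38 (SE 0.26, 95% interval -0.19 to 0.95, adjusted p = 0.832 in edgeR). This value rested on nicotine replicate 2, since it was 0.07 without that library, and it was 0.58 without nicotine replicate 3 (unadjusted p = 0.0441, adjusted p = 0.689 in edgeR). No relation between the levels of the pair was seen. Over the 6 libraries Pearson's r of *Chrna4* and *Chrnb2* was 0.392 (exact permutation p = 0.449, 0.799 adjusted over 2 pairs) and Spearman's rho was 0.314 (exact permutation p = 0.564, 0.714 adjusted). Without the 2 libraries furthest from the median of *Chrna4* r was 0.227. The ratio of *Chrna4* to *Chrnb2* counts was between 0.389, in control replicate 3, and 0.894, in nicotine replicate 3. The genes most like *Chrnb2* were *Stk38l*, *Tmprss6* and *Kif3b*, with r of 0.999, 0.994 and 0.993, among 146 genes with an r over 0.95.

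The sequences just upstream of the start sites of *Chrna4*, *Chrnb2* and *Chrna7* are shown because the results turn on these genes and on how their levels varied between libraries. They are the 250 bases before the RefSeq start in assembly GRCr8, read on the gene's strand, from a table that held 9 of the 10 genes. All 3 genes lie on the minus strand. Capitals mark GGGCGG or its reverse complement CCGCCC, the core of the GC box bound by Sp family factors.
Chrna4 promoter, chr3:188534527-188534776: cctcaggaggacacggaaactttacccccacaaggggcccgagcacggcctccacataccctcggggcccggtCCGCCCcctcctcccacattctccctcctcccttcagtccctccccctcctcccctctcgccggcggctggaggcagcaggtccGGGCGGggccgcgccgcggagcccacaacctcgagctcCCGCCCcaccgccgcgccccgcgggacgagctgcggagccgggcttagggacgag
Chrnb2 promoter, chr2:177487307-177487556: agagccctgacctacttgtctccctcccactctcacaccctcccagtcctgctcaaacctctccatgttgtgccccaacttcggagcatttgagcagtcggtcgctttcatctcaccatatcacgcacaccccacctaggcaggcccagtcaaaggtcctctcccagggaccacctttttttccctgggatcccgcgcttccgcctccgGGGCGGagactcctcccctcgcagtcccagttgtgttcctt
Chrna7 promoter, chr1:126249130-126249379: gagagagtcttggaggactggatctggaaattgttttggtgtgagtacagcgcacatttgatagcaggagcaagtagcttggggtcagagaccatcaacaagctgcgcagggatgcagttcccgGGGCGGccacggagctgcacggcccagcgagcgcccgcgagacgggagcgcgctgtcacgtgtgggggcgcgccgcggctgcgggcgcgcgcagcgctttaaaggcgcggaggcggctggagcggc
The *Chrna4* window held 3 such motifs, and those of *Chrnb2* and *Chrna7* held 1 each. Among 27457 promoters of the same length 32.4% held at least 1 on either strand. The GC content was 74.4% for *Chrna4*, 66.0% for *Chrna7* and 59.6% for *Chrnb2*, against a median of 52.0% over these promoters, and CG dinucleotides numbered 26, 27 and 10. Among the other 6 windows the number of motifs was 4 for *Chrna5*, 2 each for *Chrna3* and *Chrnb1*, 1 for *Chrnb4* and 0 for *Chrna9* and *Chrna10*. The *Chrna5* and *Chrna3* windows, of genes with few counts here, had GC contents of 70.4% and 65.2%, and the lowest was 47.2% for *Chrna10*. A match is a description of the letters and not of a bound site.

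*Chrna7* encodes a subunit that forms a receptor alone, with a high permeability to calcium. It was at 0.573, 1.52 and 0.859 CPM in nicotine replicates 1, 2 and 3, and at 1.07, 1.00 and 3.65 CPM in control replicates 1, 2 and 3. Control replicate 3 stood above the other 5 libraries, and the groups overlapped. Nicotine libraries averaged 0.984 ± 0.486 CPM against 1.91 ± 1.51 CPM for control libraries (SD, n = 3 rats per group). This is a log2 fold change of -0.89 (SE 0.52, 95% interval -2.05 to 0.27, adjusted p = 0.825 in edgeR). The difference rested on control replicate 3, and without it the log2 fold change was -0.0027. Without nicotine replicate 2 it was -1.39 (unadjusted p = 0.0370, adjusted p = 0.713 in edgeR) and without control replicate 2 it was -1.25 (unadjusted p = 0.0410, adjusted p = 0.957 in edgeR).

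The level of *Chrna7* followed markers of melanotrophs, the *Pomc*-expressing cells of the intermediate lobe. *Oacyl*, a marker of these cells, was at 21.2, 69.7 and 34.9 CPM in the nicotine libraries and 42.98, 36.1 and 201 CPM in the control libraries. Its order over the 6 libraries was that of *Chrna7* (Spearman's rho 1, Pearson's r 0.997), r was 0.976 over 4 libraries without nicotine replicate 1 and control replicate 3, and *Oacyl* was the gene most like *Chrna7* among 14505 genes. *Pcsk2*, which encodes a prohormone convertase, and *Pax7*, the transcription factor of melanotrophs, had r of 0.976 and 0.968 with *Chrna7*. Their Spearman's rho was 0.943 and 0.829, and they ranked 11 and 22 in likeness to *Chrna7*. Over the 4 libraries without the 2 furthest, r was 0.710 for *Pcsk2* and 0.838 for *Pax7*. *Pomc* itself, which corticotrophs of the anterior lobe also express, had an r of 0.524 and a rho of 0.257, and ranked 2277 among the 14505 genes. Its r was 0.790 without the 2 libraries furthest from its median. *Chrna7* was looked up in this way after its values were seen, and 47 genes had an r over 0.95 with it. The summed level of the 3 melanotroph genes was 120, 254 and 173 CPM in the nicotine libraries and 201, 188.5 and 572 CPM in the control libraries, and no gene of the list was at 0. All 3 were lower after nicotine and 1 of 3 had an unadjusted p under 0.05 in edgeR, against 6.14% of all genes tested. Their part in the difference of *Chrna7* was not tested.

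*Chrna5*, *Chrna3* and *Chrnb4* lie next to each other on 1 chromosome. *Chrna3*, which encodes the alpha subunit of ganglionic receptors, was found with 2, 3 and 0 counts after nicotine against 1, 4 and 0 counts in controls. These sums of 5 and 5 counts allow no comparison of groups. A count of 0 allows a level of up to 3 counts, which is 0.0496 CPM in nicotine replicate 3 and 0.0792 CPM in control replicate 3, and this limit covers counting error only. *Chrna5*, the accessory subunit, had 4, 7 and 5 counts after nicotine and 5, 7 and 1 counts in controls. These are means of 0.0812 ± 0.00461 and 0.114 ± 0.0806 CPM (SD, n = 3 rats per group), and the gene was not tested. *Chrnb4*, the beta subunit of ganglionic receptors, was at 0.446, 0.771 and 0.397 CPM after nicotine and 0.406, 0.681 and 0.581 CPM in controls. Its groups overlapped fully and averaged 0.538 ± 0.203 and 0.556 ± 0.139 CPM (SD, n = 3 rats per group). The log2 fold change between them was -0.04 (SE 0.42, 95% interval -0.97 to 0.88, adjusted p = 0.987 in edgeR). In the later annotation *Chrna3* and *Chrnb4* both overlap LOC120094166, which had 1 count each in nicotine replicate 2 and control replicate 3 and none in the other libraries, and *Chrna5* overlaps the pseudogene *Zc3h15-ps2*.

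*Chrna9* and *Chrna10* encode the alpha subunits of the hair cell receptor. *Chrna9* was at 0.764, 1.37 and 0.727 CPM after nicotine and at 1.40, 0.889 and 1.03 CPM in controls. *Chrna10* was at 0.594, 0.369 and 0.446 CPM after nicotine and at 0.812, 0.492 and 0.449 CPM in controls. The groups overlapped for both genes, and control replicate 1 was the highest library for both. The log2 fold change was -0.13 for *Chrna9* (95% interval -0.95 to 0.69, adjusted p = 0.957 in edgeR) and -0.30 for *Chrna10* (95% interval -1.22 to 0.62, adjusted p = 0.899 in edgeR). The sign of *Chrna9* turned without nicotine replicate 3 or control replicate 1, at 0.03 and 0.038, and that of *Chrna10* turned with all libraries thinned to the smallest total, at 0.031. Without control replicate 1 the log2 fold change of *Chrna10* was -0.05. No relation between the pair was seen across the 6 libraries, with Pearson's r of 0.158 (exact permutation p = 0.799) and Spearman's rho of 0.20 (exact permutation p = 0.714). Without the 2 libraries furthest from the median of *Chrna9*, r was -0.357. The muscle ADP-ribosyltransferase gene *Art1*, which overlaps *Chrna10* in the later annotation, had 1 count in all libraries together.

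*Chrnb1* encodes the beta subunit of the muscle receptor. It was at 2.27, 3.07 and 2.78 CPM after nicotine and at 2.73, 2.16 and 3.54 CPM in controls. The groups overlapped and averaged 2.71 ± 0.406 and 2.81 ± 0.695 CPM (SD, n = 3 rats per group). The log2 fold change between them was -0.04 (SE 0.28, 95% interval -0.65 to 0.57, adjusted p = 0.984 in edgeR). The sign turned under 4 alternatives, the largest value being 0.18 without control replicate 3. Of its muscle partners, *Chrna1* was at 3.84, 6.42 and 5.24 CPM after nicotine and at 4.25, 5.41 and 3.25 CPM in controls, with overlapping groups and a log2 fold change of 0.26 (adjusted p = 0.861 in edgeR), which was 0.06 without nicotine replicate 2 and 0.48 without control replicate 2. The subunits *Chrnd*, *Chrne* and *Chrng* were removed by the filter. *Chrnd* had 0 to 8 counts per library, *Chrne* 3 to 28, with the most in nicotine replicate 1, and *Chrng* 0 to 4. Of 9 skeletal muscle genes 2 passed the filter, *Acta1*, which encodes the actin of skeletal muscle, at 2.35 to 5.58 CPM, and the myosin light chain gene *Mylpf*, at 0.293 to 0.806 CPM. Their groups overlapped, and the summed level of the 9 genes lay between 2.98 and 6.54 CPM. The other 7 genes were removed by the filter. Of these, the myosin gene *Myh2* was at up to 0.595 CPM. It averaged 0.378 CPM after nicotine and 0.107 CPM in controls, with overlapping groups. *Ckm*, the muscle creatine kinase, and *Myh4* were at up to 0.0757 and 0.0330 CPM. The part of muscle in the levels of *Chrnb1* and *Chrna1* was not tested. The genes most like *Chrnb1* were *Slc12a5*, *Mpi* and *Adamts17*, with r of 0.990, 0.990 and 0.989, among 38 genes with an r over 0.95. *Zbtb4*, which overlaps *Chrnb1* in the later annotation, lay between 51.3 and 74.5 CPM, and reads of the shared stretch may have been assigned to either gene or to none.

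*Chrna2*, an alpha subunit found in few brain regions, was at 0.509, 0.347 and 0.347 CPM after nicotine and at 0.591, 0.530 and 0.502 CPM in controls. Nicotine replicates 2 and 3 were below all controls, while nicotine replicate 1 overlapped the lowest control. Nicotine libraries averaged 0.401 ± 0.0935 CPM against 0.541 ± 0.0455 CPM for control libraries (SD, n = 3 rats per group). This is a log2 fold change of -0.45 (SE 0.40, 95% interval -1.33 to 0.42, adjusted p = 0.849 in edgeR). The log2 fold change stayed between -0.62 and -0.36 with 1 library left out at a time. *Chrna6* and *Chrnb3*, the remaining neuronal subunits, were removed by the filter, with 0 to 8 and 0 to 12 counts per library.

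Over the group of subunits, 0 of 8 genes tested were called in edgeR, where 0% of all 17292 genes were called and 1062 had an unadjusted p under 0.05. DESeq2 called 61 genes, or 0.339% of those with an adjusted p, and none of them was a subunit gene. Of the 8 subunit genes 1, *Chrna4*, had an unadjusted p under 0.05. After nicotine 2 genes, *Chrna4* and *Chrnb2*, were at a higher and 6 at a lower estimated level, and the median log2 fold change was -0.09, against 0.007 over all genes tested. For *Chrnb1* the interval in folds was 0.639 to 1.49, so a change past 1.5 lay outside it in the upward direction, while for *Chrna7* it was 0.242 to 1.20. Except for *Chrna4*, each interval held a fold of 1, which does not show that the levels were alike.

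**Figure D3:**
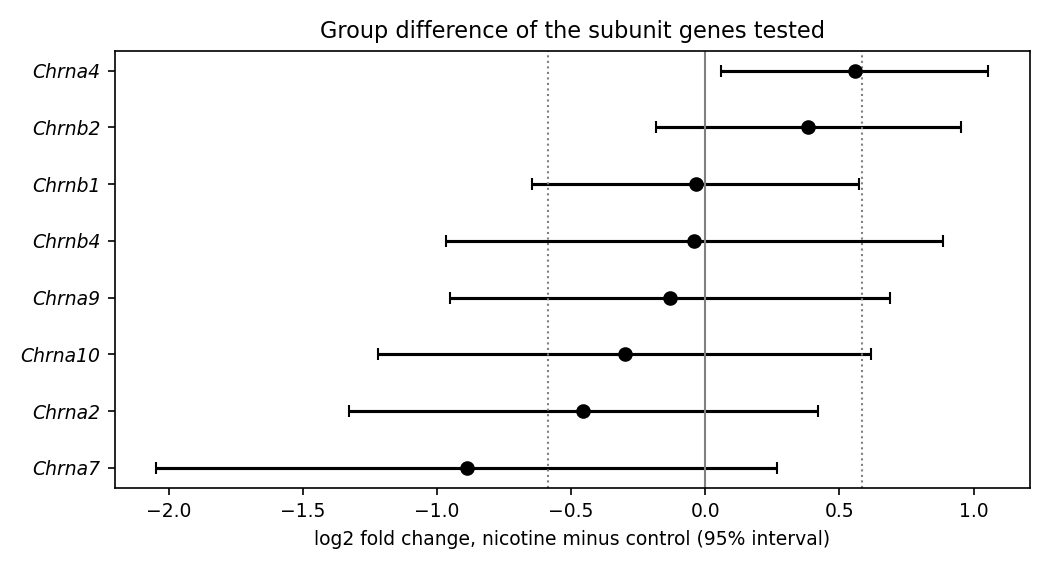
Log2 fold change (nicotine minus control) of the 8 subunit genes tested, from edgeR, with the 95% interval. The dotted lines mark a fold change of 1.5 in each direction, and only the interval of *Chrna4*, 0.06 to 1.05, lies to one side of 0.

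The other genes of the cholinergic system were examined as lists. Of 13 genes for chaperones and modulators of nicotinic receptors, 12 were tested, 0 were called and 2 had an unadjusted p under 0.05, with a median log2 fold change of 0.13. Over all genes tested 6.14% had such a p in edgeR, and the median was 0.007. *Slurp1* had no count in any library, which allows a level of up to 0.111 CPM in the smallest. The genes with the most counts were *Ly6e*, *Vsnl1* and *Ly6h*. *Ly6e* averaged 88.8 ± 12.6 CPM in the nicotine and 79.8 ± 4.94 CPM in the control group (SD, n = 3 rats per group). *Vsnl1*, which encodes a neuronal calcium sensor, averaged 77.0 ± 34.8 CPM in the nicotine and 91.2 ± 17.1 CPM in the control group (SD, n = 3 rats per group). Its log2 fold change of -0.25 depended on the library left out. It was -0.68 without nicotine replicate 1 (unadjusted p = 0.00760, adjusted p = 0.542 in edgeR). Without nicotine replicate 3 it was -0.04 (unadjusted p = 0.886 in edgeR) and without nicotine replicate 2 it was -0.11 (unadjusted p = 0.713 in edgeR). For *Ly6h* all nicotine libraries lay below all control libraries, at 45.8 ± 6.12 against 54.7 ± 3.21 CPM (SD, n = 3 each), with a log2 fold change of -0.26 (adjusted p = 0.827 in edgeR), and 5.14% of all genes tested had this order.

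The genes of the list with an unadjusted p under 0.05 were *Lypd6* and *Lypd6b*, which encode membrane-anchored proteins of the Ly6 family that bind nicotinic receptors. *Lypd6* was at 0.552, 0.923 and 0.182 CPM after nicotine and at 0.258, 0.189 and 0.0792 CPM in controls, and *Lypd6b* was at 0.849, 2.50 and 1.39 CPM after nicotine and at 0.849, 0.965 and 0.423 CPM in controls. The groups overlapped for both and nicotine replicate 2 was the highest library for both. The log2 fold change was 1.76 for *Lypd6* and 1.11 for *Lypd6b* (adjusted p = 0.806 for each in edgeR), and without nicotine replicate 2 it was 1.01 and 0.58. *Ric3* and *Tmem35a*, chaperones needed for the assembly of several nicotinic receptors, had log2 fold changes of 0.10 and -0.35 (adjusted p = 0.930 and 0.816 in edgeR), with levels of 31.5 to 50.5 CPM and 27.4 to 51.8 CPM.

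All 5 muscarinic receptor genes, whose products are the G protein-coupled receptors of acetylcholine, were tested, and 0 were called. The median log2 fold change was 0.48, against 0.007 over all genes tested, with 4 genes higher and 1 lower. *Chrm1* was at 9.91, 15.5 and 11.7 CPM in the nicotine libraries and at 9.16, 9.67 and 7.42 CPM in the control libraries, without overlap (log2 fold change 0.50, unadjusted p = 0.0444, adjusted p = 0.806 in edgeR). Over all genes tested 6.12% had all nicotine libraries above all control libraries, and 6.14% had an unadjusted p under 0.05 in edgeR. *Chrm4* was at 3.91 ± 1.47 and 3.22 ± 0.280 CPM, and *Chrm3* at 2.88 ± 0.783 and 2.06 ± 0.392 CPM, after nicotine and in controls (SD, n = 3 each). Without nicotine replicate 2 the log2 fold changes of *Chrm1*, *Chrm4* and *Chrm3* were 0.30, 0.06 and 0.23.

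Of 9 genes for the synthesis, transport and breakdown of acetylcholine, 6 were tested, 0 were called and 0 had an unadjusted p under 0.05, with a median log2 fold change of 0.03. *Chat*, the enzyme that makes acetylcholine, the acetylcholine transporter *Slc18a3* and the choline transporter *Slc5a7* were removed by the filter. Their highest levels were 0.222, 0.208 and 0.276 CPM. The genes with the most counts were the choline transporter-like genes *Slc44a1* and *Slc44a2* and *Ache*, which encodes acetylcholinesterase. *Ache* averaged 14.1 ± 4.39 CPM in the nicotine and 14.6 ± 0.332 CPM in the control group (SD, n = 3 rats per group), a log2 fold change of -0.04 (adjusted p = 0.978 in edgeR). *Slc44a1* and *Slc44a2* had log2 fold changes of 0.11 and 0.18 (adjusted p = 0.915 and 0.854 in edgeR). Among the subunits outside the list of 10, 1 of 6 was tested and none was called.

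**Figure D4:**
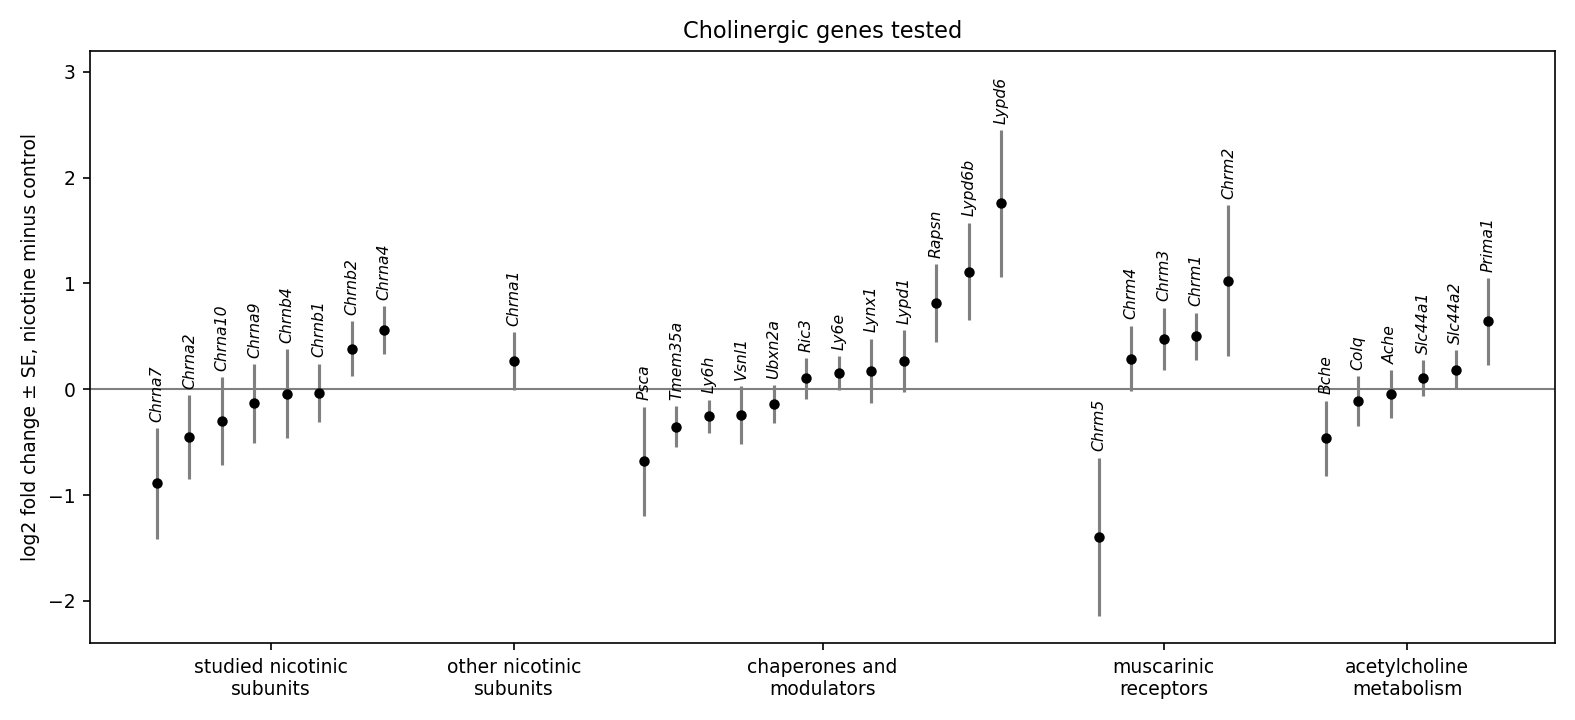
Log2 fold change (nicotine minus control) with its standard error for each cholinergic gene tested in edgeR, sorted within each list. No gene was called, and *Chrna4*, *Lypd6*, *Lypd6b* and *Chrm1* had an unadjusted p under 0.05.

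**Figure D5:**
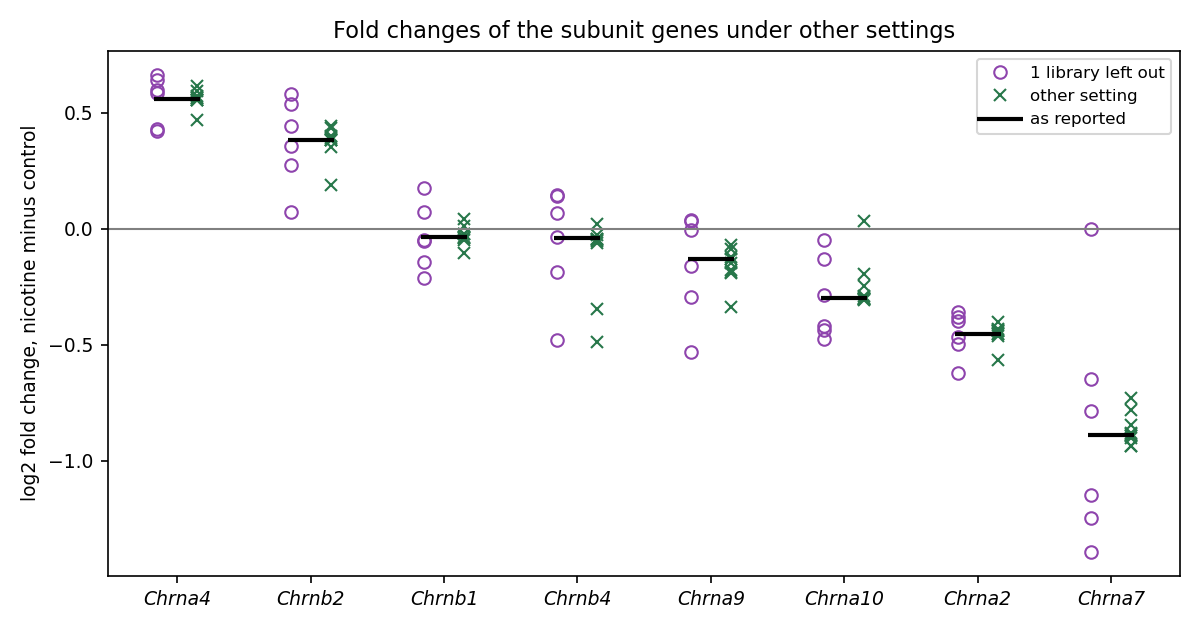
Log2 fold change of the 8 subunit genes tested as reported (black bar), with 1 of the 6 libraries left out (circles) and under 9 other settings (crosses). *Chrna4* stays between 0.42 and 0.66, and *Chrna7* reaches -0.0027 without control replicate 3.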

How the data were processed

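Per the study's methods and the labels, stranded paired-end libraries of total pituitary RNA were mapped to rn7 with HISAT2 2.1.0, and featureCounts assigned them to UCSC ncbiRefSeq gene models. The deposited values are counts per gene symbol, which the authors did not normalise. The strand setting, and whether reads or pairs were counted, are not given in the sources used here. The extraction text of the labels describes testis. Depth was 28318383 to 85977002 counts per library.

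The members and lists were chosen with earlier results of these data known. The members were found by symbol. In R 4.3.3, genes were filtered with filterByExpr (17292 kept), scaled by TMM and compared with edgeR 4.0.16 (quasi-likelihood test, no covariate, Benjamini-Hochberg adjustment over all genes tested). The standard error is the log2 fold change divided by the square root of the F statistic. Log2 CPM for correlations had a prior count of 2. DESeq2 1.42.0 and limma 3.58.1 (voom) served as alternatives, with the others named in the closing section. edgeR's older fit was added after the data were seen. The procedure was run on counts simulated from the fit of these data. That check was on the fold change estimates and not on the calls. Named were the 10 subunit genes, other subunits, the 3 genes with the most counts and those with an unadjusted p under 0.05 of each cholinergic list, the 2 marker genes with the most counts of each cell type list, and the 3 genes most correlated (mean of at least 1 CPM) with the 3 subunit genes with the most counts. Any other gene was picked with its values in view. The reference tables are of assembly GRCr8 and were used for promoters and neighbours only.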

Additional observations from a re-analysis of the deposited data

How the results depend on the processing

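The number of subunit genes called, and that of the other cholinergic genes called, was 0 under each of the alternatives run. Among all genes, 0 were called with RLE normalisation, at least 10 counts in every library, thinning to the smallest total and edgeR's older fit, as in the reported test. DESeq2 called 61 genes, library sizes alone 1, voom with quality weights 1 and no filter 2. Leaving out single libraries gave 0 to 9 calls, with 9 without nicotine replicate 3, 4 without control replicate 2 and 1 without nicotine replicate 2. The replicate number as a block called 2 genes, neither of them a subunit gene. The deviations of same-numbered libraries from their group means correlated at 0.03, -0.20 and -0.08. With so few libraries per group these values cannot tell whether the numbers pair the libraries. The total counts were lowest in replicate 1 and highest in replicate 2 of both groups. The smallest adjusted p was 0.103, so a stricter threshold or none on the fold change could only give 0. In 120 comparisons of subunit genes with alternatives the sign turned in 11. With library sizes alone *Chrnb1* was at 0.011 and *Chrnb4* at 0.019, with voom *Chrnb1* was at 0.042, and thinned counts gave 0.031 for *Chrna10*. With 1 library left out the log2 fold changes ranged from -0.53 to 0.038 for *Chrna9*, from -0.21 to 0.18 for *Chrnb1* and from -0.48 to 0.15 for *Chrnb4*. In 178 comparisons of the other named cholinergic genes the sign turned in 6. *Slc44a1* was at -0.0023 with voom and from -0.051 to 0.19 with 1 library left out, and *Ache* was at 0.018 with library sizes alone, at 0.066 with thinned counts and from -0.33 to 0.13 with 1 library left out. The cause was not tested. Genes with under 100 counts in most libraries have wide intervals at this depth.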

Other observations

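The marker lists of the other cell types that the gland can hold gave these values. Over all genes tested in edgeR 6.14% had an unadjusted p under 0.05, 542 of them higher and 520 lower after nicotine. DESeq2 called 0.339% of the genes with an adjusted p. None of their genes was called in edgeR, and DESeq2 called *Acta2* (log2 fold change 2.09, adjusted p = 0.00152) and *Abcc9* (1.31, adjusted p = 0.0974), both of the smooth muscle and pericyte list. Of the neuron genes 12 of 14 were tested, 11 were higher and 1 lower after nicotine, and 3 had an unadjusted p under 0.05. The neuron genes with the most counts, *Snap25* and *Tubb3*, lay between 209 and 230 CPM and between 81.7 and 119 CPM. All 10 smooth muscle and pericyte genes were higher, 5 with an unadjusted p under 0.05, and *Acta2*, which encodes the actin of smooth muscle, was at 2.74, 2.21 and 2.54 CPM after nicotine and at 0.258, 0.984 and 0.449 CPM in controls. *Tagln* stood at 138 CPM in nicotine replicate 3 and at 10.6 to 32.4 CPM in the other 5 libraries, and *Myh11* lay between 8.94 and 22.3 CPM. All 6 endothelial genes were higher, 3 with an unadjusted p under 0.05, with *Plvap* and *Kdr* at 45.5 to 105 CPM and 40.3 to 74.7 CPM. All 8 macrophage genes were lower, 3 with an unadjusted p under 0.05, with *C1qa* at 55.2 to 159 CPM and *Csf1r* at 22.6 to 47.2 CPM. Of the lymphocyte genes 7 of 8 were tested and all 7 were lower, 3 with an unadjusted p under 0.05, with *Cd4* at 29.4 to 40.2 CPM and *Cd8a* at 0.999 to 2.55 CPM. The 5 neutrophil genes tested were lower in edgeR, each with an unadjusted p under 0.05, with control replicate 2 below the nicotine libraries. With voom their log2 fold changes were -0.45 to 0.06, the sign of *S100a8* turned and the lowest unadjusted p was 0.636, while in DESeq2 only *Mpo* had an unadjusted p under 0.05, at 0.0107. Of these genes *S100a9* and *S100a8* lay between 3.92 and 63.3 CPM and between 1.02 and 35.3 CPM. The Schwann cell and oligodendrocyte genes were split, with 3 higher and 3 lower. *Sox10* was at 0.912, 1.14 and 0.611 CPM after nicotine and at 0.258, 0.586 and 0.291 CPM in controls (log2 fold change 1.15, unadjusted p = 0.0252, adjusted p = 0.798 in edgeR), and *Mbp* and *Pmp22* lay between 12.7 and 61.4 CPM and between 10.9 and 21.0 CPM. The 4 folliculostellate genes were higher, 0 with an unadjusted p under 0.05, with *S100b* and *Capn6* at 72.3 to 136 CPM and 68.6 to 145 CPM. Of the 7 hormone genes 4 were higher and 3 lower, and 1 had an unadjusted p under 0.05. This was *Lhb*, which encodes the beta subunit of luteinising hormone, at 216, 820 and 223 CPM after nicotine and at 154, 75.6 and 125 CPM in controls (log2 fold change 1.83, unadjusted p = 0.00283, adjusted p = 0.760 in edgeR). *Acta2*, *Abcc9*, *Sox10*, *Mpo* and *Lhb* were named after their values were seen. Of the hormone genes *Pomc*, which with *Gh1* had the most counts, lay between 20412 and 71827 CPM.

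The subunit genes outside the rule for likeness, looked up after the values were seen, were each most like another gene over the 6 libraries. The first gene was *Mex3b* for *Chrna2*, *Golph3l* for *Chrna9*, *Emc8* for *Chrna10* and *Stard5* for *Chrnb4*, with r of 0.997, 0.992, 0.998 and 0.986, and between 19 and 74 genes had an r over 0.95 with each of them.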
